A study of Mus musculus with 20 samples.

Results

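The mitochondrial carrier family, also called SLC25, was described here through every gene whose symbol starts with Slc25a and that had an Ensembl transcript listed both in the wild-type (WT) tables and in the angiotensin II (Ang II) tables of the knockout (KO) mice. That rule gave 38 genes of the 14569 with such a transcript, from 87 of 31007 shared transcripts, and the values of a gene's shared transcripts were summed. Slc25a27 and Slc25a53 were listed but shared no transcript between the tables, and they are not members. RNA was sequenced from mouse abdominal aorta of 4 groups of 5 animals each: KO mice infused with Ang II, a peptide hormone that constricts vessels and raises blood pressure, at 500 ng/kg/min, KO mice given saline, WT mice infused with Ang II at the same dose, and WT mice given saline. The study asked which genes differ with the infusion and the genotype in vessels, and its title names Dapk1, a calcium/calmodulin-dependent death-associated kinase, as the gene of interest. The sources used here do not say how the KO allele was made, nor strain, age, sex or length of infusion, and for the KO saline animals 1 label field names WT mice while their titles and genotype field name KO. The KO saline tables held 2025 transcripts against 49714 for KO Ang II and 49773 for WT, so gene sums were compared among KO Ang II, WT Ang II and WT saline only.

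Mitochondrial carriers are small membrane proteins built of repeated helix pairs, and nearly all sit in the inner mitochondrial membrane. Each moves a particular set of solutes between cytosol and matrix: adenine nucleotides and phosphate for ATP synthesis, citrate, malate and other acids for biosynthesis and shuttles of reducing power, amino acids, acylcarnitines for fatty acid oxidation, and cofactors and iron. The abdominal aorta is mostly smooth muscle, but it is surrounded by fat that can hold brown adipocytes rich in mitochondria, so carrier transcripts can come from the wall or from the tissue around it.

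The libraries held 58970000 to 74890000 reads each, as recovered from the steps of the FPKM values (fragments per kilobase, corrected for library size). Smooth muscle markers, 9 of 9 listed, summed to 5685 to 10310 FPKM in KO Ang II, 7022 to 14626 FPKM in WT Ang II and 5832 to 13114 FPKM in WT saline, the defining genes of the labelled tissue. Dapk1 was at 0.514 to 9.46 FPKM in KO Ang II, 3.96 to 19.9 FPKM in WT Ang II and 9.48 to 15.4 FPKM in WT saline, and sums over transcripts do not show which exons are missing. Intestinal transcripts, 6 of 9 listed, summed to 15.03 to 46.2 FPKM in all 5 KO Ang II libraries and in WTAngII580 and WTAngII581, and all 6 were at 0 in the other 8 libraries. Brown adipocyte markers, 10 of 10 listed and led by Ucp1, summed to 357 to 2439 FPKM in KO Ang II, 152 to 2448 FPKM in WT Ang II and 576 to 3181 FPKM in WT saline. In such bulk samples fewer cells of a type and less RNA per cell cannot be told apart. Per-library values below follow the order KOAng_II402, KOAngII537, KOAngII560, KOAngII612 and KOAngII628, then WTAng_II519, WTAng_II536, WTAngII568, WTAngII580 and WTAngII581, then WTNS_369, WTNS_373, WTNS_523, WTNS_547 and WTNS_550.

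Most of the summed FPKM of the 38 members came from few genes. Carriers under other symbols, such as Ucp1 at a mean of 666 FPKM, are not counted in it. Over the 15 libraries 4 members averaged above 100 FPKM and held 55.3% of the members' sum: Slc25a5 and Slc25a4, which exchange ADP for ATP, Slc25a3, which brings in phosphate, and Slc25a1, which exports citrate. Of the Slc25a5 sum, 60.9% came from its coding transcript. A further 14 genes averaged 10 to 100 FPKM, 18 averaged 1 to 10 FPKM, and Slc25a47 and Slc25a14 averaged under 1 FPKM. The 38 members summed to 926 to 1262 FPKM in KO Ang II with a median of 1088, 755 to 1281 FPKM in WT Ang II with a median of 952, and 769.8 to 1229 FPKM in WT saline with a median of 1022. The ranges of the 3 groups overlapped widely. FPKM is a value per length, so levels of different genes can be set side by side, although the length is that of whichever transcripts were quantified.

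**Figure D1:**
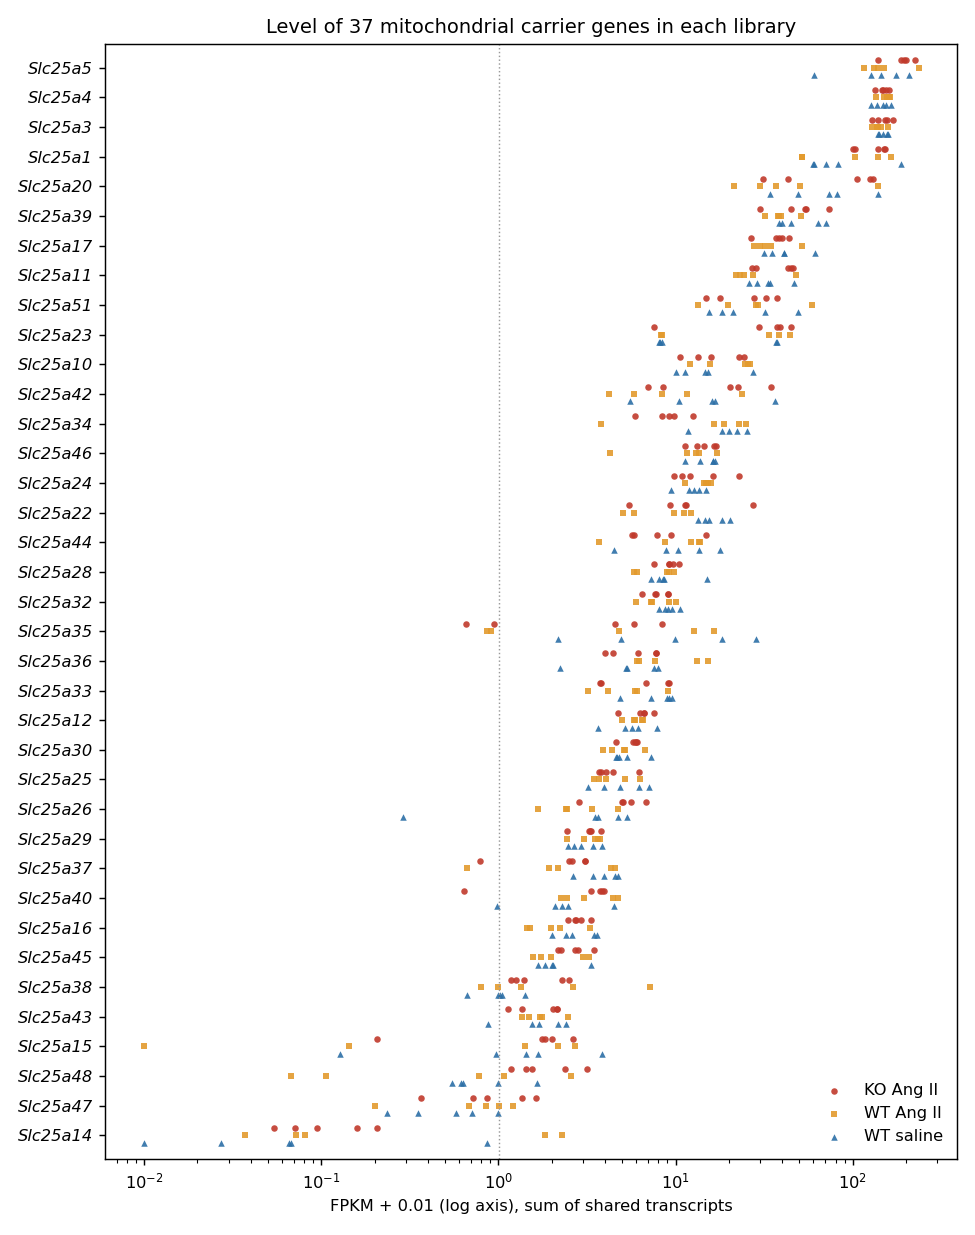
Level of 37 carrier genes in 15 libraries, as FPKM plus 0.01 on a log axis, with genes ordered by mean level. Circles are KO Ang II, squares WT Ang II and triangles WT saline libraries. Slc25a5, Slc25a4, Slc25a3 and Slc25a1 lie at the top, and the highest library of Slc25a35 and of Slc25a48 was 44.3 and 55.0 times its lowest.

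Between the groups, no carrier gene differed past the threshold in any comparison. The 36 members with a mean of at least 1 FPKM were tested with limma on log2(FPKM + 1) among 12537 genes, with Benjamini-Hochberg adjustment over all of them and a threshold of 0.05. A difference on this scale understates the fold change of genes with low values. The 3 comparisons share libraries, so their counts are not independent of each other.

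In WT Ang II versus WT saline, which asks what the infusion changed in WT aorta, limma called 0 of 36 carriers, where 0% of all genes were called. At an unadjusted p under 0.05 there were 2 carriers, Slc25a22 and Slc25a36, of 36, where 4.95% of all genes (621) had such a p. The members' median difference was -0.08, with 14 positive and 22 negative, and the median over all genes was 0.02. Without WTAngII580 and WTAngII581, the WT Ang II libraries with intestinal transcripts, the members' median was -0.17 and the count of calls 0. The groups did not overlap for 1 carrier, Slc25a22, where 1.03% of all genes did not overlap. The brown adipocyte list had a median difference of -1.007, with 9 of 10 negative, and skeletal muscle markers one of -1.02, with 9 of 9 negative. The muscle markers summed to 190.8, 284.7 and 115 FPKM in WTNS_369, WTNS_523 and WTNS_550, but to 3.36 and 2.50 FPKM in WTNS_373 and WTNS_547. In WT Ang II they summed to 262.7 FPKM in WTAngII580 and to 3.58 to 35.45 FPKM in its other libraries. Sympathetic neuron markers had a median of -0.79 (7 of 8 negative) and macrophage markers one of 0.56 (8 of 8 positive). The part of these lists in the carriers' differences was not tested, here and in the other comparisons.

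In KO Ang II versus WT Ang II, which asks what the genotype changed under the infusion, limma called 0 of 36 carriers, where again 0% of all genes were called. Slc25a48 alone had an unadjusted p under 0.05, where 7.11% of all genes (892) did. It passed the filter of a mean of 1 FPKM only through its level in KO Ang II. The members' median difference was 0.12, with 22 positive and 14 negative, against -0.01 over all genes. No carrier separated the groups without overlap, where 0.885% of all genes did. Among the 7 libraries that carried intestinal transcripts, with 2 WT Ang II animals left, the members' median was 0.10 and the count of calls 0. The brown adipocyte list had a median difference of 1.002 here, with 9 of 10 positive, and the general adipocyte list one of 0.39, with 11 of 11 positive. Sympathetic neuron markers had a median of 2.13 (7 of 8 positive), skeletal muscle markers -0.71 (7 of 9 negative), erythroid markers -0.89 (5 of 5 negative) and smooth muscle markers -0.41 (7 of 9 negative). Neuron markers summed to 519.5, 1007 and 323.4 FPKM in KOAng_II402, KOAngII537 and KOAngII560, but to 54.5 and 82.7 FPKM in KOAngII612 and KOAngII628. These lower sums lay within the WT Ang II range of 33.1 to 185.8 FPKM. Skeletal muscle markers in WT Ang II summed to 262.7 FPKM in WTAngII580 and to 3.58 to 35.45 FPKM in its other libraries. No gene of these lists passed limma.

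In KO Ang II versus WT saline, which sets the infused KO animals against the WT baseline, limma called 0 of 36 carriers, where 0.0877% of all genes (11) were called. Slc25a34 alone had an unadjusted p under 0.05, where 7.46% of all genes (935) did. The members' median difference was 0.04, with 21 positive and 15 negative, against 0.02 over all genes, and no carrier separated the groups, where 1.54% of all genes did. All KO Ang II libraries and no WT saline library carried intestinal transcripts, so genotype with infusion and whatever brought those transcripts cannot be told apart in this comparison. Of the 11 genes called, 5 were among the 6 intestinal genes. The brown adipocyte list had a median difference of -0.02 (7 of 10 negative), skeletal muscle markers -1.85 (8 of 9 negative), erythroid markers -0.93 (4 of 5 negative), sympathetic neuron markers 0.86 (7 of 8 positive) and macrophage markers 0.36 (8 of 8 positive). Skeletal muscle markers summed to 5.29 to 49.93 FPKM in KO Ang II, and WTNS_373 and WTNS_547 lay below that range. For neuron markers only KOAngII537, at 1007 FPKM, lay above the WT saline range of 39.7 to 528.3 FPKM. limma-voom on reads recovered from the FPKM values also called 0 carriers in each of the 3 comparisons.

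**Figure D2:**
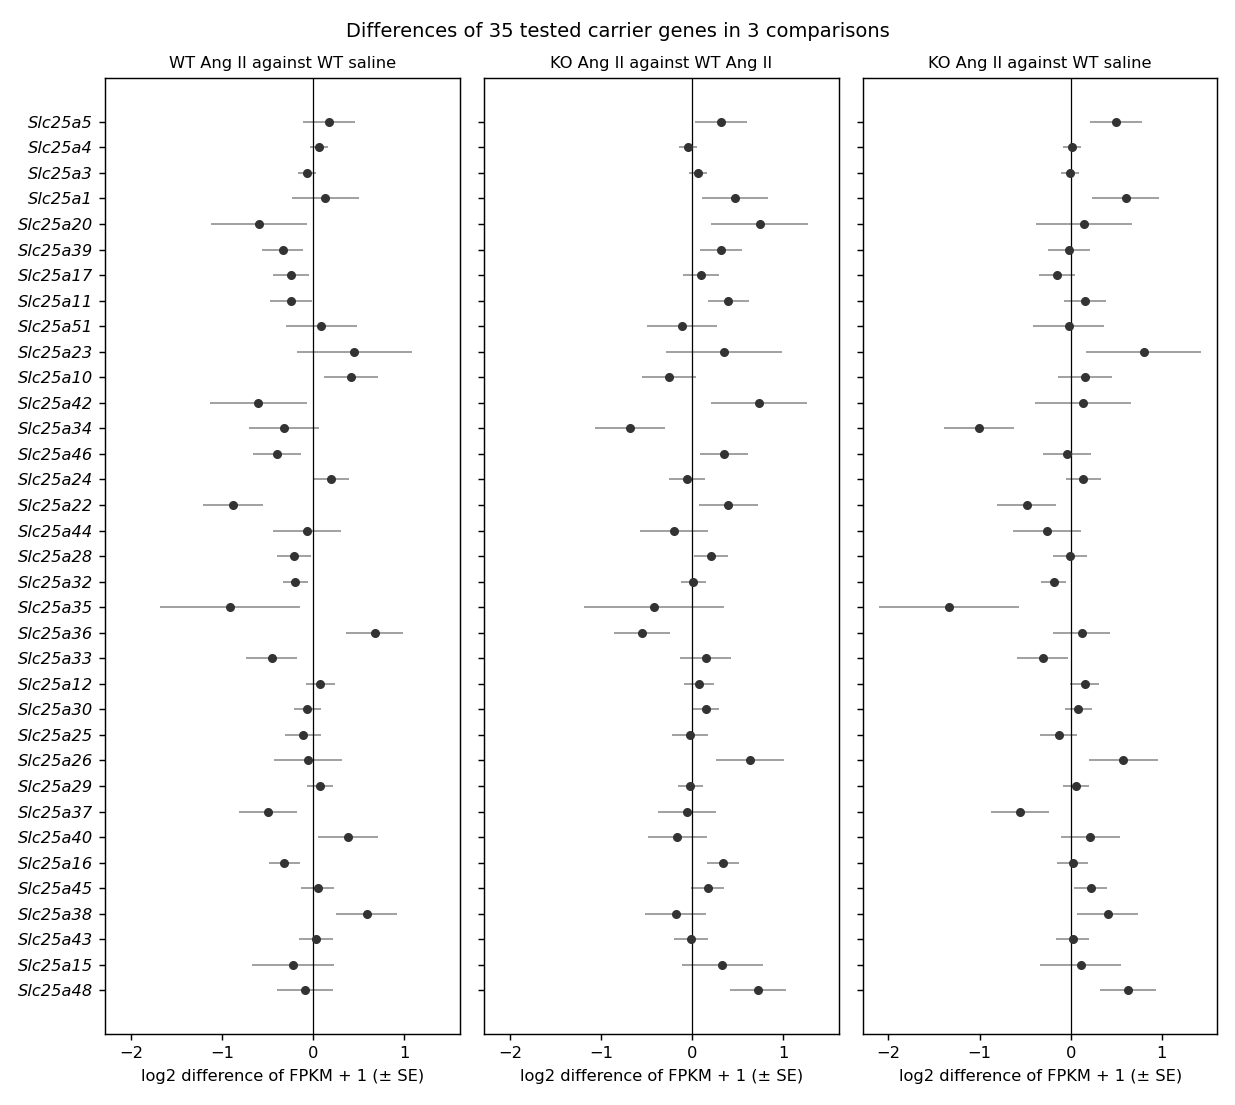
Log2 difference of FPKM + 1 for 35 tested carriers in each comparison, as points with bars of 1 SE, first-named group minus the other, ordered by mean level. Differences ran from -1.33 (Slc25a35 in KO Ang II versus WT saline) to 0.80 (Slc25a23 in the same comparison), and none passed limma after adjustment.

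Among carriers of adenine nucleotides and phosphate, Slc25a4 and Slc25a3 were abundant and varied little between libraries. Slc25a4 (chromosome 8, 46206797 to 46211284), the ADP/ATP exchanger of heart and muscle, had 159, 154, 146, 147 and 133 FPKM in KO Ang II, 151, 135, 156, 161 and 161 FPKM in WT Ang II and 137, 127, 164, 155 and 149 FPKM in WT saline. Its highest library was 1.29 times its lowest, and all 3 groups overlapped. Slc25a3 (chromosome 10, 91116574 to 91124059), which carries phosphate for ATP synthesis, had 151, 168, 139, 156 and 128 FPKM in KO Ang II, 128, 144, 139.5, 158 and 136 FPKM in WT Ang II and 158, 156, 141, 139 and 149 FPKM in WT saline. It ranged 1.31-fold, and its group means of 148 ± 15.5 FPKM in KO Ang II, 141 ± 11.01 FPKM in WT Ang II and 148.5 ± 8.46 FPKM in WT saline (SD, n = 5 each) lay within 1 SD of each other. The log2 differences of both genes stayed between -0.07 and 0.07 with an SE of 0.10 in the 3 comparisons, and limma's adjusted p values ran from 0.862 to 0.996.

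Slc25a5 (chromosome X, 36795651 to 36798807), the ADP/ATP exchanger that most other tissues also use, had 225, 199.6, 139, 188 and 194 FPKM in KO Ang II, 116, 132, 139.7, 236 and 150.1 FPKM in WT Ang II and 176, 207, 127, 60.3 and 144 FPKM in WT saline. KO Ang II libraries were high apart from KOAngII560, WTAngII580 stood above the other WT Ang II animals, and WTNS_547 was the lowest of all. The differences were 0.18 in WT Ang II versus WT saline, 0.32 in KO Ang II versus WT Ang II, then 0.50 in KO Ang II versus WT saline (SE 0.28, limma adjusted p = 0.951, 0.755 and 0.763). Without WTAngII580 and WTAngII581 the difference in WT Ang II versus WT saline was -0.04, and without WTNS_547 it was -0.10. Among only the 7 libraries with intestinal transcripts that in KO Ang II versus WT Ang II was -0.01 (SE 0.26). The ratio of Slc25a5 to Slc25a4 was 0.952 to 1.46 in KO Ang II with a median of 1.30, 0.767 to 1.47 in WT Ang II with a median of 0.930, and 0.390 to 1.63 in WT saline with a median of 0.968. The ratio is not one of coding RNA, since the Slc25a5 sum takes in a retained-intron transcript, at 60.5 to 90.1 FPKM in KO Ang II. The coding transcript ENSMUST00000016463 was at 77.7 to 133 FPKM there, below Slc25a4 in each KO Ang II library. A pseudogene copy of Slc25a5 exists in the mouse, and how reads shared by copies were assigned is not given in the sources used here.

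Slc25a23 (chromosome 17, 57043711 to 57059863), a calcium-regulated exchanger of ATP-Mg and phosphate, fell into separate low and high libraries within every group. It had 44.7, 37.4, 38.96, 29.6 and 7.53 FPKM in KO Ang II, 8.38, 33.8, 44.5, 8.28 and 38.2 FPKM in WT Ang II and 36.96, 8.39, 37.4, 8.11 and 8.10 FPKM in WT saline. The gap came from its transcript ENSMUST00000040280 of 3362 nt, which was at 3.55 to 6.23 FPKM in 6 libraries and at 24.5 to 38.4 FPKM in 9 libraries. The sum covers 3 of the gene's 5 listed transcripts, so it may not show the level of the whole gene. Low libraries were 1 of 5 in KO Ang II, 2 of 5 in WT Ang II and 3 of 5 in WT saline, and the gene's differences of 0.45, 0.35 and 0.80 had an SE of 0.63 (limma adjusted p = 0.946, 0.888 and 0.847). The gene overlaps Crb3 on the opposite strand, and whether counting used strand is not given in the sources used here. Its relatives Slc25a24 and Slc25a25 had no such gap, at 9.42 to 22.8 FPKM and 3.20 to 7.06 FPKM over the 15 libraries.

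Slc25a42 (chromosome 8, 70184340 to 70212305), which brings coenzyme A into the matrix, ranged 8.67-fold over the 15 libraries. Slc25a17 (chromosome 15, 81318911 to 81360812), a member of the family in the peroxisome membrane that carries coenzyme A and other cofactors, ranged 2.28-fold. Slc25a42 had 22.6, 20.4, 7.01, 8.48 and 34.5 FPKM in KO Ang II, 4.22, 11.6, 8.42, 23.8 and 5.85 FPKM in WT Ang II and 16.7, 36.6, 5.52, 10.4 and 16.02 FPKM in WT saline. Its highest libraries, KOAngII628 and WTNS_373, were in different groups, and each group held both high and low animals. Slc25a17 had 43.5, 38.4, 26.7, 37.1 and 39.9 FPKM in KO Ang II, 29.8, 34.5, 27.7, 51.6 and 31.8 FPKM in WT Ang II and 40.8, 61.05, 35.1, 31.6 and 40.7 FPKM in WT saline. It was highest in WTNS_373 and WTAngII580, and its largest difference was -0.25 in WT Ang II versus WT saline (SE 0.20, limma adjusted p = 0.938). Slc25a42 differed by -0.60 in WT Ang II versus WT saline and by 0.74 in KO Ang II versus WT Ang II (SE 0.53, limma adjusted p = 0.938 and 0.696).

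Among carriers of di- and tricarboxylic acids, Slc25a1 (chromosome 16, 17925223 to 17928219), which exports citrate for fatty acid and sterol synthesis, had 153, 150.4, 139, 103 and 100.3 FPKM in KO Ang II, 51.5, 104, 52.03, 138 and 164 FPKM in WT Ang II and 59.4, 83.05, 187, 60.8 and 70.6 FPKM in WT saline. KO Ang II libraries all lay at or above 100.3 FPKM, while WT Ang II spanned 51.5 to 164 FPKM and WT saline 59.4 to 187 FPKM. The differences were 0.13 in WT Ang II versus WT saline, 0.47 in KO Ang II versus WT Ang II, then 0.60 in KO Ang II versus WT saline (SE 0.36, limma adjusted p = 0.969, 0.714 and 0.780). Among only the 7 libraries with intestinal transcripts the KO Ang II versus WT Ang II difference had the other sign, -0.25 (SE 0.24). Without WTAngII580 and WTAngII581 the WT Ang II versus WT saline difference was -0.35 (SE 0.41).

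Slc25a10 (chromosome 11, 120491840 to 120499187), which exchanges malate and succinate for phosphate, had 15.8, 24.5, 22.7, 13.4 and 10.6 FPKM in KO Ang II, 15.7, 25.5, 12.04, 24.8 and 26.2 FPKM in WT Ang II and 9.99, 15.2, 27.4, 14.6 and 11.3 FPKM in WT saline. Its range was similar in the 3 groups. Slc25a11 (chromosome 11, 70644196 to 70647479), the oxoglutarate/malate exchanger of the malate-aspartate shuttle, had 43.2, 45.1, 26.9, 28.5 and 46.00 FPKM in KO Ang II, 21.9, 27.5, 23.1, 47.9 and 24.5 FPKM in WT Ang II and 33.2, 46.9, 28.6, 25.9 and 34.04 FPKM in WT saline. The 3 lowest libraries were WT Ang II animals and the highest was also one, WTAngII580, and the differences were -0.24, 0.40 and 0.16 in WT Ang II versus WT saline, KO Ang II versus WT Ang II and KO Ang II versus WT saline (SE 0.23, limma adjusted p = 0.938, 0.674 and 0.927). Slc25a11 overlaps Rnf167 on the opposite strand.

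Slc25a20 (chromosome 9, 108662088 to 108684641), the carnitine/acylcarnitine carrier that brings fatty acids in for oxidation, was the fifth most abundant member and ranged 6.52-fold. It had 129.9, 105, 31.3, 43.1 and 125 FPKM in KO Ang II, 21.3, 50.6, 36.9, 139 and 30.1 FPKM in WT Ang II and 81.7, 139, 33.9, 48.95 and 73.01 FPKM in WT saline. Each of the 3 groups held animals near the top and animals near the bottom of this range. Its differences of -0.59 in WT Ang II versus WT saline, 0.74 in KO Ang II versus WT Ang II, then 0.15 in KO Ang II versus WT saline, had an SE of 0.53 (limma adjusted p = 0.938, 0.696 and 0.976). Without WTAngII580 and WTAngII581 the difference in WT Ang II versus WT saline was -0.96 (SE 0.46, limma adjusted p = 0.581), and among only the 7 libraries with intestinal transcripts the KO Ang II versus WT Ang II difference was 0.20 (SE 0.76).

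Of the amino acid carriers, Slc25a22 (chromosome 7, 141429744 to 141437892) moves glutamate with protons. Its summed values separated WT Ang II from WT saline without overlap, where 1.03% of all genes did so. It had 27.3, 11.4, 11.2, 9.32 and 5.48 FPKM in KO Ang II, 5.04, 11.1, 9.79, 5.83 and 12.3 FPKM in WT Ang II and 20.3, 15.4, 18.4, 14.7 and 13.4 FPKM in WT saline. Every WT Ang II library lay below every WT saline library, while KO Ang II ranged across both, with KOAng_II402 the highest of the 15. In WT Ang II versus WT saline the difference was -0.88 (SE 0.33, unadjusted p = 0.0164, limma adjusted p = 0.901). Without the intestinal libraries WTAngII580 and WTAngII581 it was -0.90 (SE 0.25, limma adjusted p = 0.539). Its most abundant listed transcript held 41.5% of the sum, so no single transcript stands for the gene. That coding transcript, ENSMUST00000106007, overlapped, at 0.127 to 8.93 FPKM in WT Ang II and 0.291 to 16.8 FPKM in WT saline. So did the other coding transcript, ENSMUST00000019226, at 0.005 to 3.275 FPKM and 0.106 to 9.56 FPKM. The sum also holds retained-intron transcripts, such as ENSMUST00000140602 at 10.7 FPKM in WTNS_550. It covers 5 of the gene's 9 listed transcripts.

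Slc25a38 (chromosome 9, 120110374 to 120124504), which brings glycine in for haem synthesis, had 1.38, 2.48, 2.28, 1.16 and 1.25 FPKM in KO Ang II, 7.18, 2.62, 0.791, 0.982 and 1.33 FPKM in WT Ang II and 1.41, 1.03, 0.658, 1.01 and 0.982 FPKM in WT saline. WTAng_II519 was far above the rest, and the other 14 libraries lay between 0.658 and 2.62 FPKM. Its difference in WT Ang II versus WT saline was 0.58 (SE 0.34, limma adjusted p = 0.938). The other amino acid carriers were Slc25a44, a carrier of branched-chain amino acids, at 3.68 to 17.8 FPKM, Slc25a12, the aspartate/glutamate exchanger, at 3.66 to 7.80 FPKM, Slc25a29, for basic amino acids, at 2.42 to 3.81 FPKM, and Slc25a15, for ornithine, at 0 to 3.86 FPKM. Of the 6 tested, 3 differences were positive in WT Ang II versus WT saline, 3 in KO Ang II versus WT Ang II, with 4 in KO Ang II versus WT saline, and limma called 0.

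Carriers of cofactors, glutathione and nucleotides were the largest group, with 9 members tested and 0 called by limma in each comparison. Slc25a39 (chromosome 11, 102402985 to 102407946), which brings glutathione into the matrix, had 53.6, 54.5, 44.6, 30.1 and 73.8 FPKM in KO Ang II, 39.4, 38.6, 38.1, 51.1 and 31.8 FPKM in WT Ang II and 63.4, 71.05, 40.1, 44.7 and 38.5 FPKM in WT saline. KOAngII628 and WTNS_373 were highest and KOAngII612 lowest, and the groups overlapped. The Slc25a39 sum covers 5 of the gene's 8 listed transcripts. Its largest difference was -0.34 in WT Ang II versus WT saline (SE 0.23, limma adjusted p = 0.938). Its relative Slc25a40 was lower, at 0.629 to 4.74 FPKM.

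Slc25a36 (chromosome 9, 97074961 to 97111157), a pyrimidine nucleotide carrier, had 6.15, 7.71, 7.76, 3.98 and 4.44 FPKM in KO Ang II, 13.1, 15.2, 6.02, 6.20 and 7.61 FPKM in WT Ang II and 2.21, 5.34, 7.995, 7.52 and 5.22 FPKM in WT saline. WTAng_II519 and WTAng_II536 were the highest 2 of the 15 and WTNS_369 the lowest, while the other WT Ang II animals lay within the range of WT saline. In WT Ang II versus WT saline the difference was 0.67 (SE 0.31, unadjusted p = 0.0475, limma adjusted p = 0.938), and in KO Ang II versus WT Ang II it was -0.55 (SE 0.31, limma adjusted p = 0.674). Slc25a26 (chromosome 6, 94500331 to 94604672), which brings in the methyl donor S-adenosylmethionine, had 5.61, 5.06, 2.83, 4.98 and 6.81 FPKM in KO Ang II, 2.42, 1.67, 3.38, 4.71 and 2.39 FPKM in WT Ang II and 3.62, 5.28, 3.50, 0.278 and 4.72 FPKM in WT saline. WTNS_547 was far below all others, and 4 of 5 KO Ang II libraries lay above all WT Ang II libraries, with a difference of 0.64 (SE 0.37, limma adjusted p = 0.674).

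The other cofactor carriers included Slc25a51, for NAD, at 13.3 to 59.3 FPKM, Slc25a32, for folate and flavin, at 5.97 to 10.6 FPKM, Slc25a33, for pyrimidine nucleotides, at 3.21 to 9.48 FPKM, and Slc25a16 at 1.44 to 3.61 FPKM. Slc25a32 stayed within 0.20 log2 units in each comparison.

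Of the iron carriers, Slc25a28, mitoferrin of most tissues, was at 5.78 to 14.97 FPKM. Slc25a37 (chromosome 14, 69241848 to 69285112), the mitoferrin that red cell precursors use, had 3.06, 2.60, 0.780, 3.08 and 2.48 FPKM in KO Ang II, 4.30, 1.93, 4.53, 0.652 and 2.17 FPKM in WT Ang II and 2.64, 3.92, 4.56, 4.75 and 3.42 FPKM in WT saline. KOAngII560 and WTAngII580 were lowest, under 1 FPKM, and the difference in KO Ang II versus WT saline was -0.55 (SE 0.32, limma adjusted p = 0.762). Of its summed level 61.4% came from a transcript annotated as a retained intron, so its FPKM is not a level of coding RNA alone. Erythroid markers summed to 1612 to 6707 FPKM in KO Ang II, 1702 to 11991 FPKM in WT Ang II and 1987 to 7251 FPKM in WT saline, and their part in Slc25a37 was not tested.

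For a last group of carriers no transported solute is given here. Slc25a34 (chromosome 4, 141618824 to 141623821) had 5.91, 8.36, 12.5, 9.79 and 9.19 FPKM in KO Ang II, 22.8, 16.6, 18.7, 3.77 and 24.8 FPKM in WT Ang II and 19.9, 22.3, 11.8, 18.2 and 25.2 FPKM in WT saline. All KO Ang II libraries were at or below 12.5 FPKM, and WT saline libraries were at or above 11.8 FPKM, so that the groups met only at their edges, while WTAngII580 was the lowest of all. The difference in KO Ang II versus WT saline was -1.005 (SE 0.38, unadjusted p = 0.0197, limma adjusted p = 0.567), and in KO Ang II versus WT Ang II it was -0.68 (SE 0.38, limma adjusted p = 0.674). Among the 7 libraries with intestinal transcripts the KO Ang II versus WT Ang II difference was -0.16 (SE 0.59).

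Slc25a48 (chromosome 13, 56438355 to 56474239) had 2.36, 1.53, 1.42, 1.17 and 3.14 FPKM in KO Ang II, 0.0571, 1.07, 0.0962, 2.55 and 0.770 FPKM in WT Ang II and 0.617, 0.609, 0.981, 0.535 and 1.63 FPKM in WT saline. KO Ang II libraries were all at or above 1.17 FPKM, and the WT Ang II group held both WTAngII580 at 2.55 FPKM and 2 animals, WTAng_II519 and WTAngII568, under 0.1 FPKM. The difference in KO Ang II versus WT Ang II was 0.72 (SE 0.31, unadjusted p = 0.034, limma adjusted p = 0.674). Among the 7 libraries with intestinal transcripts it was 0.18 (SE 0.36). Slc25a48 passed the filter of a mean of 1 FPKM only through KO Ang II, where it averaged 1.92 FPKM. It averaged 0.907 FPKM in WT Ang II and 0.8745 FPKM in WT saline, so its p values are no support for a difference. Slc25a35 (chromosome 11, 68968131 to 68974365) had 0.936, 5.81, 0.644, 4.56 and 8.42 FPKM in KO Ang II, 0.850, 12.7, 0.901, 16.5 and 4.78 FPKM in WT Ang II and 2.16, 28.6, 9.98, 4.88 and 18.2 FPKM in WT saline. Its lowest and highest library differed 44.3-fold and the differences of -0.92, -0.42 and -1.33 in WT Ang II versus WT saline, KO Ang II versus WT Ang II and KO Ang II versus WT saline had an SE of 0.77 (limma adjusted p = 0.938, 0.890 and 0.763). Slc25a35 overlaps Rangrf on the opposite strand over 1882 bases.

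The remaining members were steadier or lower. Slc25a46, an outer membrane protein of mitochondrial dynamics, was at 4.23 to 17.1 FPKM, with WTAngII581 lowest. Slc25a30, an uncoupling-protein-like carrier, was at 3.86 to 7.23 FPKM, Slc25a45 at 1.57 to 3.47 FPKM and Slc25a43 at 0.860 to 2.47 FPKM. Slc25a47 was at 0.192 to 1.62 FPKM from a non-coding transcript, and Slc25a14 was at 0 to 2.28 FPKM from a transcript annotated for nonsense-mediated decay, and neither was tested. Across the 15 libraries the SD of log2(FPKM + 1) had a median of 0.49 over the 36 tested carriers, from 0.11 in Slc25a4 to 1.36 in Slc25a35, and a median of 0.36 over all 12537 genes.

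Some carriers varied between animals together with brown adipocyte markers, while most did not pass the test of this relation. Their level, the mean log2(FPKM + 1) of 10 genes, was 6.05, 5.54, 3.90, 4.87 and 5.88 in KO Ang II, 3.09, 4.72, 4.28, 6.01 and 3.90 in WT Ang II and 5.83, 6.53, 4.38, 4.80 and 5.45 in WT saline. Over the 15 libraries 9 of 36 carriers correlated positively with it past an adjusted permutation p of 0.05, where 7.70% of all 12537 genes did, and 1 correlated negatively, Slc25a24, where 7.77% did. The median r was 0.356 over the 36 carriers and -0.132 over all genes. Those with a positive r included Slc25a20, Slc25a42, Slc25a11, Slc25a17, Slc25a32, Slc25a33, Slc25a39 and Slc25a46, which serve fatty acid entry, coenzyme A, the malate shuttle, peroxisomal cofactors, folate and flavin, pyrimidine nucleotides, glutathione and the outer membrane. A correlation was computed for each of the 12537 genes, the p-values were adjusted over all of them, and each library is 1 animal.

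Slc25a20 followed the markers most closely of the carriers, with Pearson's r = 0.97 and Spearman's rho = 0.975 (n = 15, permutation p = 1e-05, the smallest that 100000 permutations can give, adjusted 0.000464 and 0.000609). Without WTAng_II519 and WTNS_373, the 2 libraries farthest from the median marker level, r was 0.966. Slc25a42 had r = 0.948 and rho = 0.946, Slc25a11 r = 0.903 and rho = 0.907, and Slc25a17 r = 0.877 and rho = 0.918, each with a permutation p of 1e-05 for r (adjusted 0.000464). Without the 2 farthest libraries these 3 had r = 0.927, 0.880 and 0.886. Within groups, with each gene and the marker level centred on its group mean, Slc25a20 had r = 0.981, Slc25a42 0.953, Slc25a11 0.914 and Slc25a17 0.888, and 7 of 36 carriers passed, where 6.78% of all genes did, with a median r of 0.21 over the carriers and -0.137 over all genes.

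Slc25a32, Slc25a33, Slc25a39 and Slc25a46 were looser, with r = 0.746, 0.725, 0.72 and 0.625 (n = 15, adjusted permutation p = 0.0146, 0.024, 0.0227 and 0.0476). Their rho was 0.654, 0.593, 0.696 and 0.868, and by rho Slc25a32 and Slc25a33 missed the threshold (adjusted permutation p = 0.0542 and 0.0968). Slc25a24 had r = -0.657 and rho = -0.764 (adjusted permutation p = 0.0469 and 0.0153), and r = -0.579 without the 2 farthest libraries. By r it passed in none of the 4 alternatives. With Ucp1 alone r was -0.63, and centred within groups -0.65 (adjusted permutation p = 0.0822 and 0.058). Without the libraries with intestinal transcripts r was -0.769, and among only those libraries -0.646 (adjusted permutation p = 0.184 and 0.41). Of the abundant exchangers, Slc25a4 had a negative r of -0.378, and Slc25a3, which missed the threshold, had r = 0.624, close to that of Slc25a46 (adjusted permutation p = 0.38 and 0.0736). Slc25a5 had r = 0.594 and rho = 0.796 (adjusted permutation p = 0.0825 and 0.0086).

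The libraries with and without intestinal transcripts both gave a high r for Slc25a20, Slc25a42 and Slc25a11, which passed the threshold only in the libraries without them. Among the 8 libraries without them Slc25a20 had r = 0.99, Slc25a42 0.957 and Slc25a11 0.924 (adjusted permutation p = 0.0225, 0.0288 and 0.0401), and 5 of 36 carriers passed, where 3.04% of all genes did. Among the 7 libraries with them the same 3 had r = 0.98, 0.942 and 0.949 (adjusted permutation p = 0.0787, 0.105 and 0.111). Slc25a17 passed in neither set, with r = 0.863 without and 0.902 with intestinal transcripts (adjusted permutation p = 0.0854 and 0.0787). No gene of 12537 passed among those 7 libraries after adjustment. Ucp1 alone as the marker gave r = 0.938 for Slc25a20, and 7 of 36 carriers passed, where 6.72% of all genes did.

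**Figure D3:**
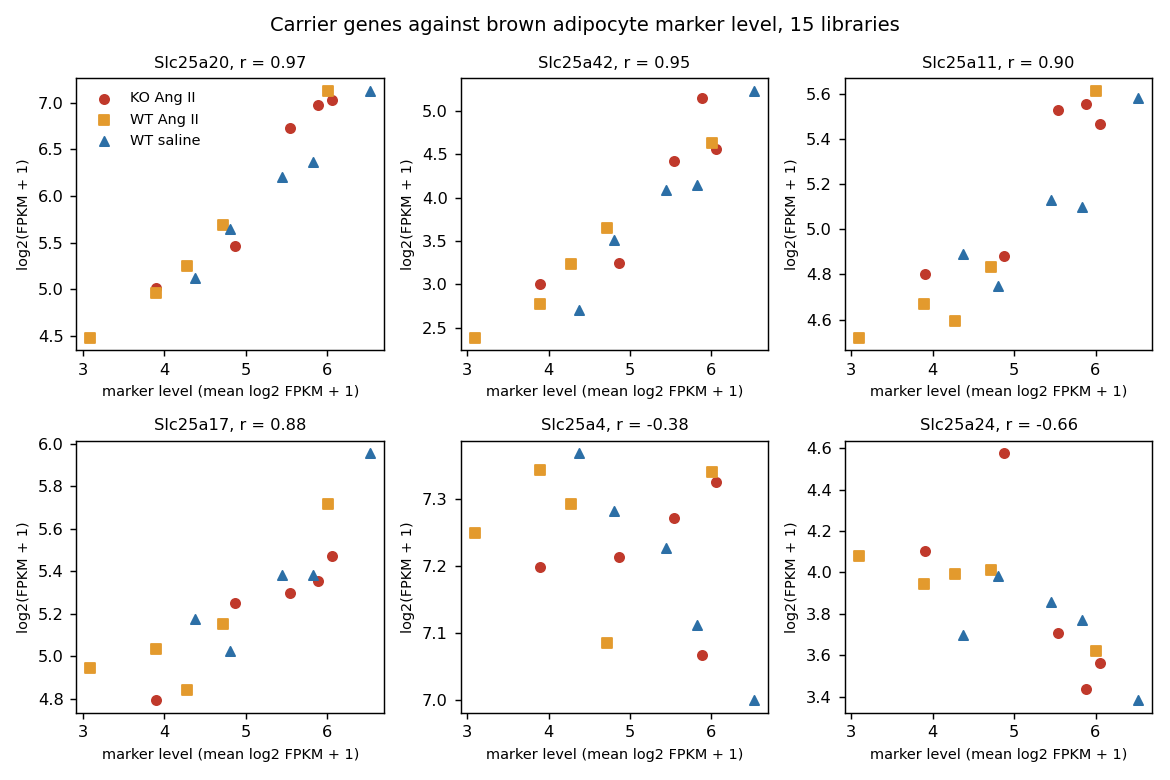
Log2(FPKM + 1) of 6 carriers against the brown adipocyte marker level, the mean log2(FPKM + 1) of 10 genes, with 1 point per library and the 3 groups marked. Slc25a20, Slc25a42, Slc25a11 and Slc25a17 climb with the marker level in all 3 groups (r from 0.88 to 0.97), and Slc25a4 does not (r = -0.38). Slc25a24 has a negative r (-0.66), which passed the threshold in no alternative.

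**Figure D4:**
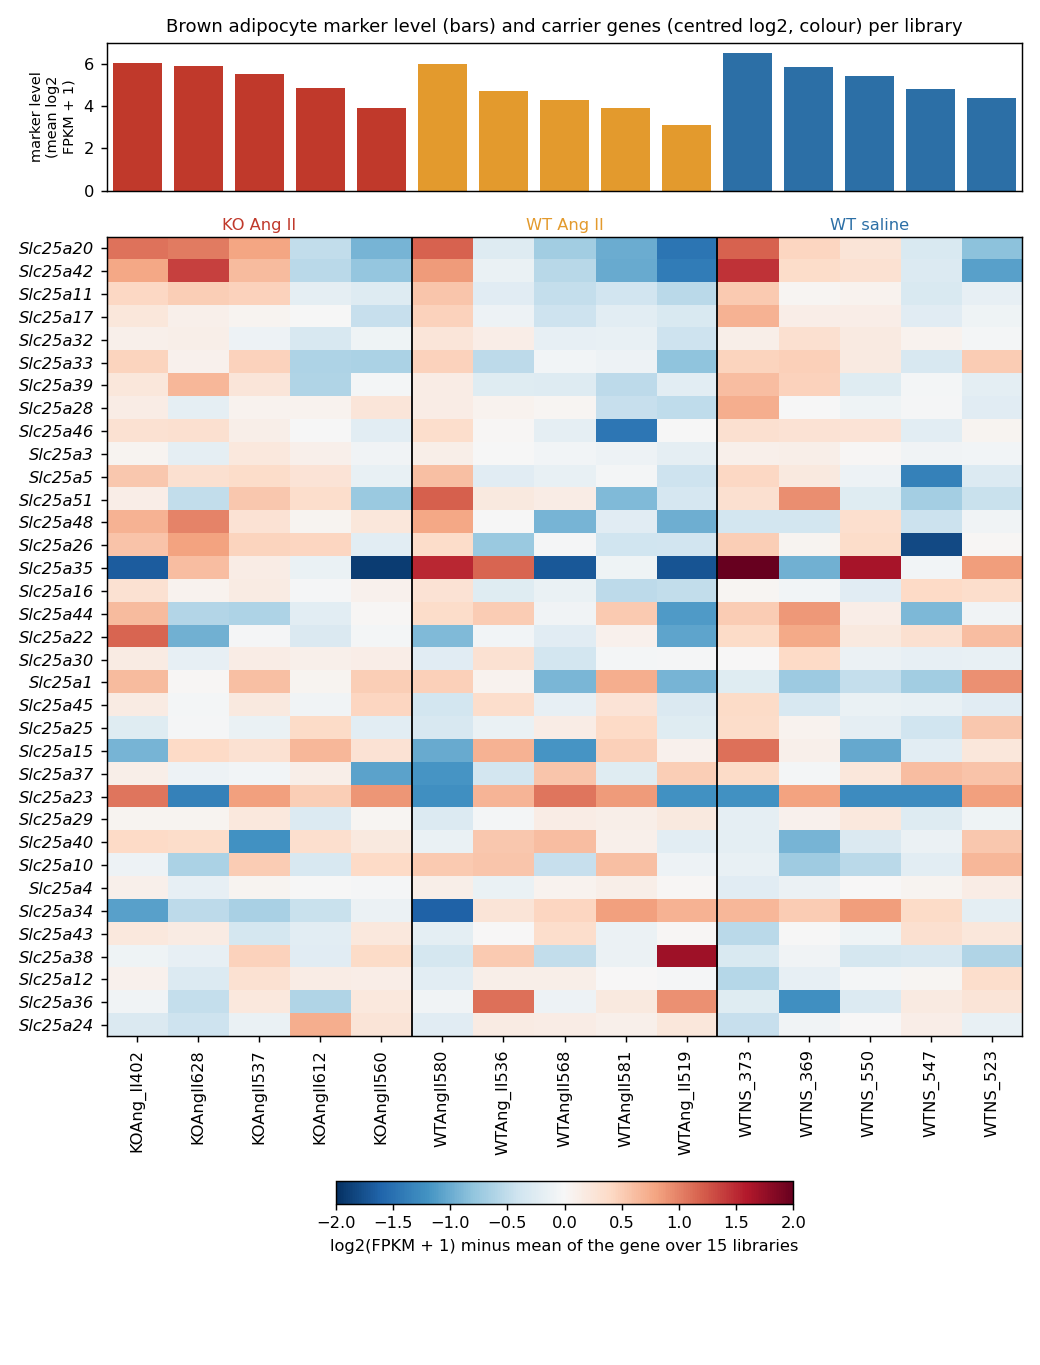
Brown adipocyte marker level (bars, mean log2 FPKM + 1) above 35 tested carriers (colour, log2(FPKM + 1) minus the mean of the gene over 15 libraries), with libraries sorted by marker level within each group and genes by their r with it. Slc25a20, Slc25a42 and Slc25a11 at the top are red on the left and blue on the right of each group, while Slc25a23 and Slc25a35 change from library to library without that order.

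The promoters of 4 carriers that followed the marker level closely are shown because these genes varied together. RefSeq (GRCm38.p6) gave promoter windows, from 250 bases before a start to 50 after it, for 30 of the 38 members, 38 windows in all. The 250 bases before the start, read 5′ to 3′ on the gene's strand, are chr9:108661886-108662135 on the plus strand for Slc25a20, chr8:70212282-70212531 on the minus strand for Slc25a42, chr11:70647040-70647289 on the minus strand for Slc25a11 and chr15:81360766-81361015 on the minus strand for Slc25a17, with GGGCGG or its reverse complement CCGCCC in capitals.
Slc25a20: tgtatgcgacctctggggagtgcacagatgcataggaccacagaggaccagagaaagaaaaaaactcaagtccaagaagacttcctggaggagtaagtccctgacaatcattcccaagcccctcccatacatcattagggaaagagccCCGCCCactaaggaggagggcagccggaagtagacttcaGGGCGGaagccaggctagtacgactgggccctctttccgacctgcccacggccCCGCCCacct
Slc25a42: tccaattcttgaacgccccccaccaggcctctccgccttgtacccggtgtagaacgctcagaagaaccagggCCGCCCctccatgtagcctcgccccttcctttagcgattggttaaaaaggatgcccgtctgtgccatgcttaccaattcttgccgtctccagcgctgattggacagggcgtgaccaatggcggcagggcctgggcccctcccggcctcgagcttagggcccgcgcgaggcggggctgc
Slc25a11: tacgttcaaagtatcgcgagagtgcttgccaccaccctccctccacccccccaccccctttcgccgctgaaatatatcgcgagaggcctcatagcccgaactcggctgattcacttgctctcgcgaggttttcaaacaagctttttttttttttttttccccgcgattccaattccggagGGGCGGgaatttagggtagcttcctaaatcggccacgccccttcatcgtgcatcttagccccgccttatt
Slc25a17: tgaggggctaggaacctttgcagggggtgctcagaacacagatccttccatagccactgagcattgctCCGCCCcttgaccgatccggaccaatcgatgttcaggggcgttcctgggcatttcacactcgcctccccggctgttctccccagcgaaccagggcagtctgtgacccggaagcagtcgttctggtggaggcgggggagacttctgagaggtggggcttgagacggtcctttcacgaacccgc
GGGCGG, a GC box on either strand, began 102, 63 and 10 bases before the start in Slc25a20, 178 bases before it in Slc25a42, 70 bases before it in Slc25a11 and 182 bases before it in Slc25a17. The motif was in 92.1% of the 38 member windows, in 35.7% of all 32851 windows and in 63.1% of the 11579 windows of tested genes. CCAAT was in 19 of the 38 member windows and in 37.1% of those of tested genes, and CCGGAAG, in Slc25a20 and Slc25a17 among those shown, was in 15.8% and 17.4%. AAGGTCA, a nuclear receptor binding core, was in 2.63% of member windows and 3.09% of those of tested genes, and in none of the 4 shown. CACGTG was in 15.8% and 9.85%. Both strands were searched each time, and windows of 1 gene overlap in part. The starts are those of RefSeq. By the GENCODE coordinates used for expression the 4 genes begin farther upstream. The 250 bases shown thus overlap each gene, and those of Slc25a11 lie wholly within it. A match is only a run of letters, not a bound site.

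Slc25a1 followed other genes than the brown markers, with r = 0.107 to their level (n = 15, adjusted permutation p = 0.847). Its pattern over the 15 libraries was compared with that of every tested gene, a step added after its values were seen. The 4 genes with the highest r were Fabp5, a fatty acid binding protein, at 0.908, Acss2, which makes acetyl-CoA from acetate, at 0.900, Me1, the cytosolic malic enzyme, at 0.893, and Acly, which splits the exported citrate into acetyl-CoA, at 0.883. These 4 were the only genes past an adjusted permutation p of 0.05 (0.0313 for each, where 0.0319% of all genes passed), and none of them passed by Spearman's rho after adjustment, at rho = 0.886, 0.893, 0.889 and 0.846. Without WTAng_II519 and WTAngII568, the 2 libraries farthest from the median of Slc25a1, r was 0.868, 0.864, 0.859 and 0.832.

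Transcripts of a gene did not always move together. Of the 38 members 17 had 1 shared transcript and 21 had more, and in 10 of those 21 the leading transcript held over 80% of the gene's sum. Slc25a3 has 2 leading coding transcripts: ENSMUST00000164505 held 40.6% to 71.8% of the sum in KO Ang II, 32.8% to 66.7% in WT Ang II and 51.3% to 71.9% in WT saline, while the gene's sum ranged only 1.31-fold. ENSMUST00000076694, the other, was at 37.6 to 82.5 FPKM in KO Ang II, 40.2 to 77.8 FPKM in WT Ang II and 31.1 to 58.5 FPKM in WT saline. For Slc25a5 a retained-intron transcript of 989 nt, ENSMUST00000126608, was at 60.5 to 90.1 FPKM in KO Ang II, 40.2 to 97.7 FPKM in WT Ang II and 3.31 to 75.9 FPKM in WT saline. The 3.31 FPKM belonged to WTNS_547, the library with the lowest Slc25a5 sum, where the coding transcript ENSMUST00000016463 was also the lowest of the 15 at 56.1 FPKM. How the authors divided reads among transcripts is not given in the sources used here.

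**Figure D5:**
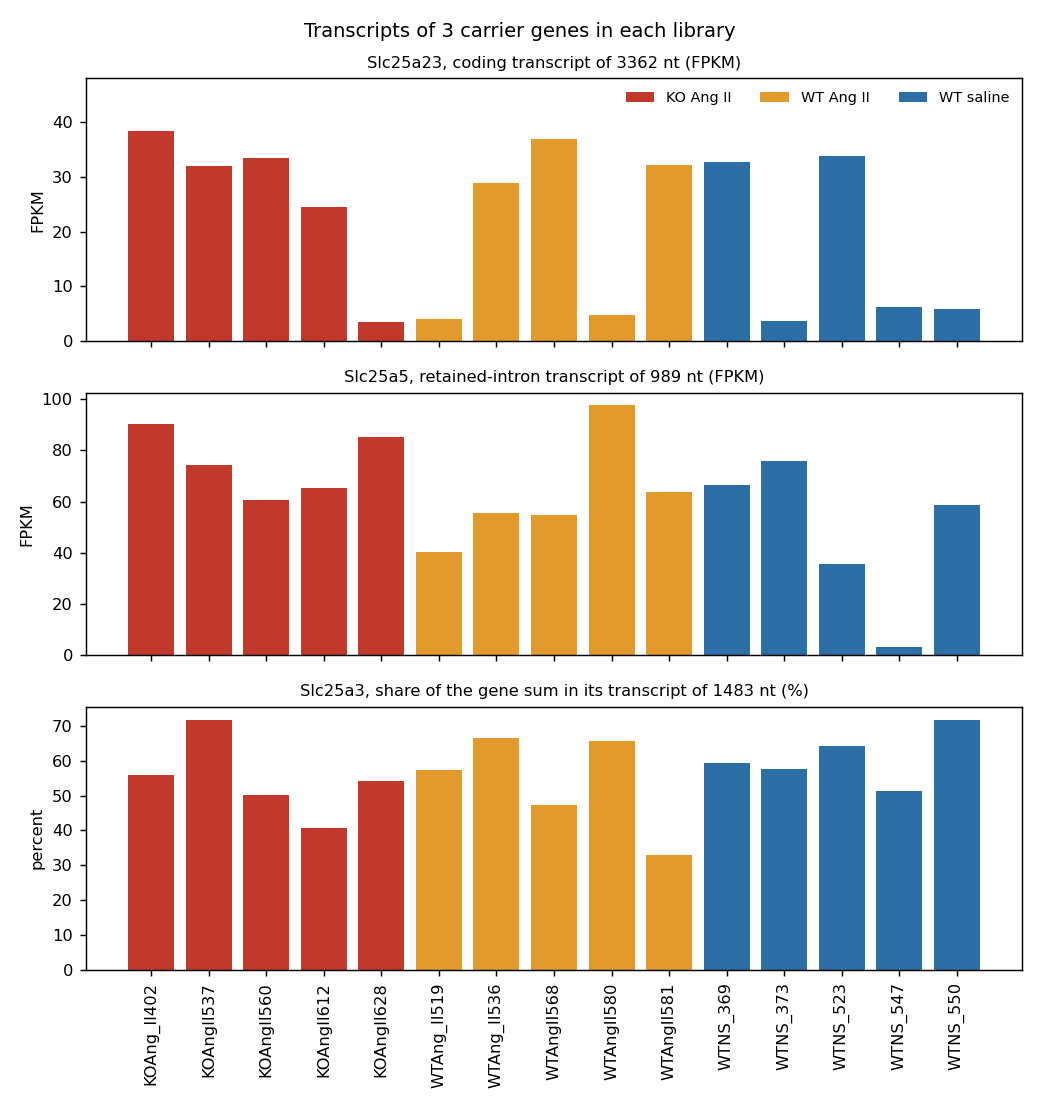
Bars of the Slc25a23 transcript ENSMUST00000040280 and the Slc25a5 retained-intron transcript ENSMUST00000126608 in FPKM, and of the share of the Slc25a3 sum in ENSMUST00000164505 in percent, for each of 15 libraries. The Slc25a23 transcript is either at 3.55 to 6.23 FPKM or at 24.5 to 38.4 FPKM, with both kinds in every group, and the Slc25a5 transcript is almost missing in WTNS_547.

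KO saline could be compared only through transcripts listed in every table, 974 in all and 4 of them from carriers. How the 2025 KO saline transcripts were picked is not given in the sources used here, and 619 of the shared ones had a mean of at least 1 FPKM. Of these, 3 were carrier transcripts, and limma called 0 of the 3 in KO Ang II versus KO saline (19.9% of all 619 called), in KO saline versus WT saline (1.13%) and in the difference between the Ang II effects of KO and WT mice (2.10%). At an unadjusted p under 0.05 there were 2, 1 and 1 of the 3, where 61.6%, 18.9% and 37.5% of the 619 had such a p.

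The Slc25a48 transcript ENSMUST00000021971 was at 2.36, 1.53, 1.42, 1.17 and 3.14 FPKM in KO Ang II, 0.05, 0.242, 0.793, 1.08 and 0.957 FPKM in KO saline, 0.057, 1.07, 0.096, 2.55 and 0.770 FPKM in WT Ang II and 0.617, 0.609, 0.981, 0.535 and 1.63 FPKM in WT saline. KO Ang II libraries lay above KO saline libraries, but how many of the 619 transcripts separated these groups was not counted. In that comparison 61.6% of the 619 had an unadjusted p under 0.05 by limma. The WT groups overlapped. The difference was 0.85 in KO Ang II versus KO saline (SE 0.32, limma adjusted p = 0.0567), and the KO effect of Ang II exceeded the WT effect by 0.95 (SE 0.46, limma adjusted p = 0.133). Without WTAngII580 that excess was 1.21 (SE 0.42, limma adjusted p = 0.0493), and the count over all 619 transcripts was 111 there, against 13 with every library. The transcript passed the filter of a mean of 1 FPKM only through KO Ang II, where it averaged 1.92 FPKM. It averaged 0.625 FPKM in KO saline, 0.907 FPKM in WT Ang II and 0.875 FPKM in WT saline. Its p values are therefore no support for a difference.

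Slc25a10 was represented by a non-coding transcript of 813 nt, ENSMUST00000123373, at 0.316 to 1.09 FPKM in KO Ang II, 1.04 to 3.85 FPKM in KO saline, 0.380 to 1.90 FPKM in WT Ang II and 0.252 to 1.90 FPKM in WT saline. It differed by -0.76 in KO Ang II versus KO saline and by 0.78 in KO saline versus WT saline (SE 0.31, limma adjusted p = 0.0649 and 0.202), and the coding transcript of the gene was not among those compared. The Slc25a39 transcript ENSMUST00000155104 averaged 9.73 ± 1.41 FPKM in KO Ang II, 9.55 ± 3.85 FPKM in KO saline, 9.15 ± 3.06 FPKM in WT Ang II and 10.47 ± 8.69 FPKM in WT saline (SD, n = 5 each), with differences from -0.01 to 0.14.

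Genes that work with the carriers were read in the same tests. Of the 16 genes of the TOM and TIM22 complexes, through which carriers enter mitochondria, limma called 0 in each comparison, with medians of -0.13 in WT Ang II versus WT saline, 0.24 in KO Ang II versus WT Ang II, then 0.09 in KO Ang II versus WT saline. Timm8b, a chaperone of the intermembrane space, averaged 48.1 ± 9.43 FPKM in KO Ang II, 39.3 ± 9.54 FPKM in WT Ang II and 43.9 ± 13.9 FPKM in WT saline (SD, n = 5 each). Tomm6 of the TOM complex, with the highest mean of the list, ran the other way. It averaged 38.4 ± 10.6 FPKM in KO Ang II, 50.6 ± 9.16 FPKM in WT Ang II and 43.6 ± 16.8 FPKM in WT saline. Of 10 enzymes of the malate-aspartate, glycerol phosphate and citrate pathways, 9 differences were negative in WT Ang II versus WT saline with a median of -0.38, and 10 positive in KO Ang II versus WT Ang II with a median of 0.59, and limma called 0. These 2 comparisons share the WT Ang II libraries. Gpd1, the cytosolic glycerol phosphate dehydrogenase, averaged 898 ± 452 FPKM in KO Ang II, 551 ± 617 FPKM in WT Ang II and 721 ± 351 FPKM in WT saline.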

How the data were processed

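RNA from abdominal aorta was sequenced in 20 libraries, 5 per group, with groups and animal numbers taken from sample titles, and each library was counted as 1 animal. The deposited tables give FPKM per transcript, and no read counts. Per the submitters' processing notes, bcl2fastq, FastQC, fastp and the mouse build mm10 were used, and libraries were made from total RNA with a NEBNext Ultra kit per the labels' protocols. For aligner, quantifier, annotation and strand setting the sources used here give nothing. Each transcript of the WT tables reaches a mean of 0.5 FPKM in 1 of the 2 WT groups or in both, and KO transcripts were listed separately. Whether the tables were scaled together is not stated, and the median shift between libraries was -0.10 to 0.08 on the log2 scale.

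Transcript IDs were matched to GENCODE M21 (30974 of 31007 shared IDs), which also gave the coordinates (mm10, 1-based). FPKM values were summed per gene over transcripts listed in the WT and the KO Ang II tables. Values below 50 reads fell within 0.05 of whole reads in 97.9% to 99.1% of cases at the recovered depth of 58970000 to 74890000 reads per library, so that the lowest genes rest on few reads. Genes averaging 1 FPKM or more over 15 libraries (12537) were tested as log2(FPKM + 1) with limma 3.58.1 in R 4.3.3 (empirical Bayes with trend and robust settings, 3 groups in 1 model, Benjamini-Hochberg adjustment over all genes). Transcripts listed in all 4 groups were tested likewise. Correlations used 100000 permutations of libraries in Python 3.11.15 with numpy 2.4.6. The fits and correlations were tested on simulated data. Alternatives were a pseudocount of 0.1, no filter, unlisted transcripts as 0, quantile normalization, median scaling, sample quality weights, the compared groups alone, limma-voom on recovered reads, and leaving out libraries. Members named with all values are the 8 most abundant and, per comparison, the 4 largest differences in each direction. Members, lists and tests were chosen with earlier results of these data known. The labels do not say whether animals shared a litter, cage or batch. RefSeq promoter windows came from build GRCm38.p6, and 8 members had none. Of the members, 1 is counted in the totals, but its own values are not reported here.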

Additional observations from a re-analysis of the deposited data

Results flagged for a closer look

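Each of the 19 named carriers was examined in its 3 groups of 5 for a library set apart from the other 4 by more than 0.71 of the group's range, and 8 of 57 groups held one, where chance marks about 1 in 20 for independent normal samples. Over all 12537 tested genes and the same 3 groups 10.1% held one, and 4 of the 8 come from 1 library. In WT Ang II, WTAngII580 was the highest for Slc25a5 at 235.9 FPKM (others 115.8 to 150.1), Slc25a20 at 138.6 FPKM (others 21.3 to 50.6), Slc25a17 at 51.6 FPKM (others 27.7 to 34.5) and Slc25a11 at 47.9 FPKM (others 21.9 to 27.5). That library also had the highest brown adipocyte marker level of its group, 6.01 against 3.09 to 4.72, and it was 1 of the 2 WT Ang II libraries with intestinal transcripts. Its skeletal muscle markers summed to 262.7 FPKM (others 3.58 to 35.45), and its general adipocyte and sympathetic neuron sums were also the highest of its group. The part of any of these in the 4 values was not tested.

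In WT saline, WTNS_523 had 187.1 FPKM of Slc25a1 (others 59.4 to 83.0). In KO Ang II, KOAng_II402 had 27.3 FPKM of Slc25a22 (others 5.48 to 11.4), and KOAngII560 had the lowest Slc25a37, 0.780 FPKM (others 2.48 to 3.08). In WT Ang II, WTAng_II519 had 7.18 FPKM of Slc25a38 (others 0.791 to 2.62).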

How the results depend on the processing

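Under every alternative of the 3 gene comparisons limma called 0 carriers, and their median difference kept its sign, from -0.223 to -0.049 in WT Ang II versus WT saline, 0.067 to 0.149 in KO Ang II versus WT Ang II and, with the exception of values down to -0.013 when libraries were left out, up to 0.107 in KO Ang II versus WT saline. Of 57 differences of named carriers, 17 changed sign under at least 1 alternative. Over all genes the count of calls was 0 in WT Ang II versus WT saline, 1 with unlisted transcripts as 0, 2 with quality weights, 2 without the libraries with intestinal transcripts, and 0 to 2 with 1 library left out. In KO Ang II versus WT Ang II it was 0, 1 with unlisted transcripts as 0, 7 among only the libraries with intestinal transcripts and 0 to 3 with 1 library left out (3 without WTAngII580, 2 without WTAngII581). In KO Ang II versus WT saline it was 11, 0 with a pseudocount of 0.1, 18 with quality weights and 0 to 11 with 1 library left out, with 0 when KOAngII537, WTNS_523 or WTNS_547 was missing. Without the intestinal libraries no fit of either comparison with KO Ang II could be made, since all its libraries carry them. For carrier transcripts, 1 was called without the filter in KO Ang II versus KO saline, and 0 to 1 in the Ang II effect of KO versus WT with 1 library left out (1 without WTAngII580). Over all transcripts the calls were 123 in KO Ang II versus KO saline (138 with a pseudocount of 0.1, 162 without the filter, 64 to 132 with 1 left out), 13 in the difference between Ang II effects (8 with a pseudocount of 0.1, 39 without the filter, 6 to 111 with 1 left out, 111 without WTAngII580) and 7 in KO saline versus WT saline (4, 14 and 3 to 14). Positive correlations with brown markers numbered 9, 5 among the 8 libraries without intestinal transcripts and 0 among the 7 with them, 2 alternatives chosen after seeing the data, as was the fit of those 7 libraries alone. Both hold fewer samples. The 1 negative correlation, that of Slc25a24, passed in none of the 4 alternatives. For the other changes the cause was not tested. No paired analysis was possible because the animal numbers are not shared between groups.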

Other observations

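Proteins of the carrier family that have other symbols were also listed. Ucp1, the uncoupling protein of brown fat, averaged 709 ± 475 FPKM in KO Ang II, 445 ± 526 FPKM in WT Ang II and 843 ± 605 FPKM in WT saline (SD, n = 5 each), more than any member. Its differences were 1.19 in KO Ang II versus WT Ang II and -1.47 in WT Ang II versus WT saline (SE 0.87, limma adjusted p = 0.704 and 0.938). Ucp3, which is known from muscle and brown fat, ranged from 1.59 to 45.2 FPKM over the 15 libraries, while Ucp2, found in many cell types, ranged only from 12.2 to 23.9 FPKM. Mtch1 and Mtch2, outer membrane relatives, averaged 60.1 ± 7.49 and 53.0 ± 14.98 FPKM in KO Ang II, 59.4 ± 4.10 and 43.3 ± 20.8 FPKM in WT Ang II and 65.1 ± 14.8 and 50.4 ± 15.7 FPKM in WT saline. limma called 0 of these 5 in each comparison.

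Other transporters and channels of mitochondria, 20 tested, had 18 positive differences in KO Ang II versus WT Ang II with a median of 0.17, 9 positive in WT Ang II versus WT saline with a median of -0.04, and 17 positive in KO Ang II versus WT saline with a median of 0.17, with 0 called by limma. Tspo, a cholesterol-binding protein of the outer membrane, averaged 150.3 ± 15.9 FPKM in KO Ang II, 137 ± 8.90 FPKM in WT Ang II and 134 ± 14.7 FPKM in WT saline, and Vdac1, a pore of that membrane, 93.2 ± 9.16, 80.5 ± 11.7 and 81.6 ± 7.53 FPKM in the same order of groups. Mcu, the pore of the calcium uniporter, differed by 0.29 and its relative Mcub by 0.66 in KO Ang II versus WT saline (unadjusted p = 0.0287 and 0.0313, limma adjusted p = 0.613 and 0.627), both named after their values were seen. Of 6 genes of the carnitine shuttle, which feeds Slc25a20, limma called 0, and Cpt1b, the muscle and brown fat form of carnitine palmitoyltransferase, averaged 40.1 ± 46.7 FPKM in KO Ang II, 34.6 ± 34.7 FPKM in WT Ang II and 64.5 ± 42.4 FPKM in WT saline.

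Slc25a34, chosen for its values, was compared with every tested gene over the 15 libraries. The highest r was 0.899 with Rpl10-ps3, a ribosomal protein pseudogene, and Rasl11a, a small GTPase, had 0.871 (n = 15, adjusted permutation p = 0.047 for each, where 0.0638% of all genes, 8, passed). By Spearman's rho neither passed, at 0.771 and 0.854 (adjusted permutation p = 0.301 and 0.287). Without WTAngII580 and KOAng_II402, the 2 libraries farthest from the median of Slc25a34, r was 0.812 and 0.912.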
